A study of Mus musculus with 6 samples.

Results

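Fibroblast growth factor (FGF) signalling was followed through 10 genes in cortical thymic epithelial cells (cTECs) that lack Psmb11. They were the receptors Fgfr1, Fgfr2 and Fgfr3, the ligands Fgf2, Fgf7, Fgf10 and Fgf21, and the Sprouty genes Spry1, Spry2 and Spry4. The genes were taken by mouse symbol, and all 10 were found among the 50600 gene identifiers counted. All 10 also passed the filter on low counts. The KO group was 3 libraries (replicates A to C) from mice of the strain B6.B6CB-Psmb11tm1Smta with the genotype Psmb11-/-. The WT group was 3 libraries (replicates A to C) labelled with the same strain and the genotype Psmb11+/+. All mice were 8 to 10 weeks old, RNA came from primary cTECs of the thymus, and the labels name no treatment. The labels do not say whether replicates were separate mice or pools, so the p-values cover the spread between these libraries and no more.

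FGFs are secreted signals that bind receptor tyrosine kinases together with heparan sulfate on the cell surface. An active receptor passes the signal through adaptor proteins and Ras to the kinase ERK, and ERK raises transcription of inhibitors that then dampen the pathway, Sprouty proteins and ERK phosphatases among them. In the mouse thymus Fgf7 and Fgf10 are known as products of mesenchymal cells that act on epithelium through the epithelial splice form of Fgfr2, a route needed for growth of the thymic epithelium.

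Libraries held 34265035 to 39224292 counts in genes. Psmb11, which encodes a proteasome subunit made in cTECs, had 1.33 ± 0.429 CPM (CPM being counts scaled to library size) across the KO group and 252 ± 9.88 CPM across the WT group (SD, n = 3 each). Of 12 cTEC markers 11 were called lower and 1 higher in KO, by the rule given below, and none was missing. These are 91.7% and 8.33% of the list, beside 11.1% lower and 12.5% higher over all genes tested. Cxcl12, a chemokine, averaged 876 ± 20.8 CPM in the KO group, against 1250 ± 40.5 CPM in the WT group. KO replicate A stood apart in thymocyte markers, whose summed level was 82.6 CPM there against 40.9 to 51.7 CPM in the other 5 libraries. It was also the highest in endothelial markers, with 65.3 CPM against at most 49.2 CPM elsewhere. Values that rest on it are given with and without it. Where the 3 libraries of a genotype are listed, they stand in the order A, B, C.

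From the RefSeq promoter table (build GRCm38.p6) 9 windows for 8 of the genes were taken. Each ran from 250 bases before a start site to 50 bases after it. No window was taken for Fgfr1 or Spry4, so neither was searched for the motifs. The windows were searched on both strands for 4 motifs: the AP-1 site TGACTCA, the cyclic AMP response element TGACGTCA, the element bound by the stress factor Atf4, TGATGNAA, and an Ets site, CCGGAAG. Among all 32851 windows of the table these letters occurred in 5.2%, 1.79%, 3.97% and 8.86%, in that order. Of the windows searched for these genes, only that of Fgf21 held any of the 4. It is shown with its match to the Atf4 element in capitals, read here on the strand opposite to the motif and beginning at position -139 from the start site (chr7:45615441-45615740, minus strand). The first of the 2 Fgfr3 windows (chr5:33721474-33721773, plus strand) is shown because Fgfr3 had the largest difference among the called genes. It has no capitals because it matched none of the motifs.
Fgf21: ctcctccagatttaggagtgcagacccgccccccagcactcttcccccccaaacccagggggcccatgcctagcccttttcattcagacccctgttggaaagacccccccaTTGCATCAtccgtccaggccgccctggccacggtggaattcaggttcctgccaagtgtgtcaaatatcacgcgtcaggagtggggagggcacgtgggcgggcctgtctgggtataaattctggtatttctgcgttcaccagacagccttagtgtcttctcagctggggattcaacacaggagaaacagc
Fgfr3: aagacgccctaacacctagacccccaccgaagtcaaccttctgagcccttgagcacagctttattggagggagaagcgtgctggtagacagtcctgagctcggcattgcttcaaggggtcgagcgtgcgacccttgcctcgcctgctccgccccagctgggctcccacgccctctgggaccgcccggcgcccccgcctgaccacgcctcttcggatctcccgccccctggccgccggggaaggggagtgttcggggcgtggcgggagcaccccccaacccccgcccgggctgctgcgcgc

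The 3 receptors all differed between the genotypes, 2 upward and 1 downward. Fgfr3 was 2.18-fold and Fgfr1 1.35-fold higher in KO, while Fgfr2, by far the most abundant receptor, was 1.10-fold lower. The Fgfr2 call held in only 8 of 17 alternative settings, those of Fgfr1 and Fgfr3 in all 17. Of the 4 ligands and 3 Sprouty genes 0 passed the edgeR test, 0 had an unadjusted p below 0.05, and 0 were called by DESeq2 or by limma. A gene was called at an adjusted p below 0.05 over all 16938 genes tested (edgeR quasi-likelihood test, Benjamini-Hochberg). By that rule 2 of the 10 genes were higher in KO against a background of 12.5% of all genes, and 1 was lower against 11.1%. Together, 3 of 10 set against 23.6% is close to the transcriptome as a whole, so the count by itself says nothing particular about these genes. For 5 of the 10, no KO library overlapped the WT range in CPM, against 39.3% of all genes tested. In bulk RNA, fewer cells of a type and less RNA per cell cannot be told apart.

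**Figure D1:**
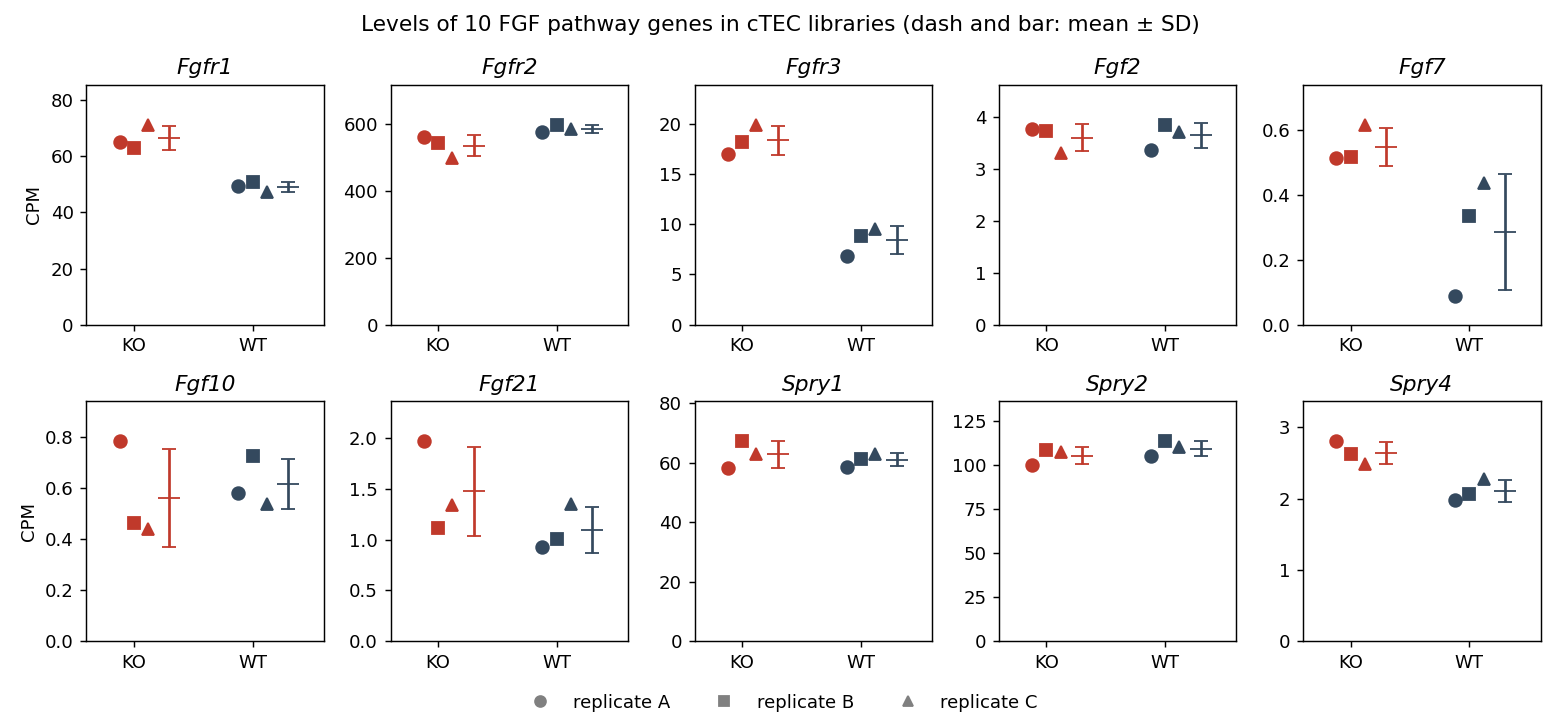
Level of each of the 10 genes in CPM (y axis, from 0) in the 3 KO libraries (red, left) and 3 WT libraries (dark blue, right), with circles, squares and triangles for replicates A, B and C and a dash with a bar for the mean ± SD. Fgfr3 lies between 17.03 and 19.9 CPM in KO and between 6.85 and 9.52 CPM in WT, while the Spry1 and Spry2 points of the genotypes overlap.

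Fgfr3 is a receptor for several FGFs, mutations of which are known for effects on bone growth (chromosome 5, 33721674 to 33737068, plus strand, GRCm38). It had 17.03, 18.2 and 19.9 CPM in the KO libraries, against 6.85, 8.83 and 9.52 CPM in the WT libraries. Every KO library lay above every WT library. The log2 fold change was 1.12 ± 0.11 (SE; edgeR adjusted p = 7.44e-06). Among the 17 alternative settings it ranged from 0.89 to 1.22, was called in all 17, and was 1.17 without KO replicate A.

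Fgfr1 is the receptor best known from mesenchyme and from embryonic patterning (chromosome 8, 25513654 to 25575718, plus strand). Its level was 65.0, 63.0 and 71.1 CPM in the KO libraries, and 49.2, 50.8 and 47.4 CPM in the WT libraries. The groups did not overlap. The difference was 0.43 ± 0.05 on the log2 scale (SE; edgeR adjusted p = 1.53e-05), with 0.38 to 0.51 across the 17 alternatives, and called in each of them.

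Fgfr2 is the receptor through which Fgf7 and Fgf10 act on epithelium (chromosome 7, from 130162451, minus strand). Its GENCODE M21 model ends at 133123350 and spans other genes, whereas the RefSeq gene ends at 130266808. It had 562, 544 and 501 CPM in the KO libraries, against 576, 598 and 586 CPM in the WT libraries. All KO libraries were lower than all WT libraries, and KO replicate C was the lowest. The log2 fold change was -0.13 ± 0.04 (SE; edgeR adjusted p = 0.0319). This call rests on most libraries: without KO replicate A the adjusted p was 0.00669, but it was 0.0591 without KO replicate B, 0.116 when KO replicate C was left out, and 0.0517, 0.117 and 0.092 without WT replicates A, B and C. The counts are summed over all transcripts of the gene, so the epithelial and mesenchymal splice forms of Fgfr2 were not analysed here.

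On the TPM scale (transcript share corrected for length, which allows levels of different genes to be compared), Fgfr2 made up most receptor transcripts in every library. Its share of the summed TPM of Fgfr1 to Fgfr4 was 89.4%, 89.8% and 86.9% in the KO libraries, and 92.8%, 92.9% and 92.3% in the WT libraries. The Fgfr1 share averaged 8.75 ± 1.46% in KO and 5.98 ± 0.186% in WT, and the Fgfr3 share 2.39 ± 0.448% in KO and 1.15 ± 0.142% in WT (SD, n = 3 each). Fgfr4 held 0.15 ± 0.0358% in KO and 0.181 ± 0.0573% in WT. These shares come from the TPM of the same libraries as the calls above and are a description.

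**Figure D2:**
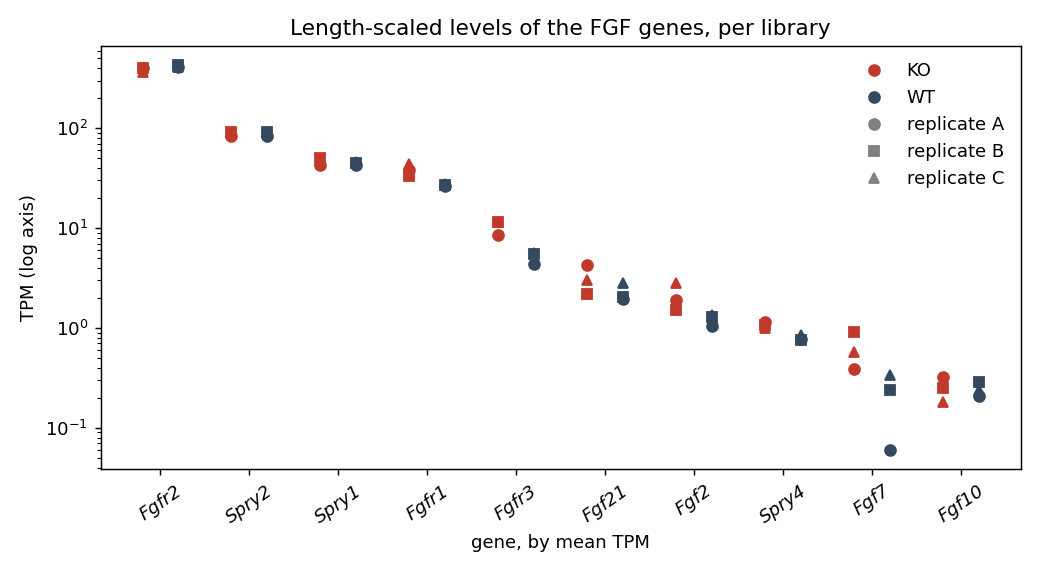
TPM of each gene (y axis, log scale) in 3 KO libraries (red, left of each pair) and 3 WT libraries (dark blue), ordered by mean TPM, with the replicate given by the marker shape. Levels run from 365 to 428 TPM for Fgfr2 down to 0.18 to 0.32 TPM for Fgf10.

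Ordered by mean TPM over the 6 libraries, the genes were Fgfr2 (402), Spry2 (88.2), Spry1 (45.4), Fgfr1 (32.5), Fgfr3 (7.82), Fgf21 (2.72), Fgf2 (1.66), Spry4 (0.935), Fgf7 (0.422) and Fgf10 (0.248). The ranges over libraries separated Fgfr2 from Spry2, Spry2 from Spry1, Fgfr1 from Fgfr3 and Fgfr3 from Fgf21. Spry1 and Fgfr1 overlapped in range, as did each neighbouring pair from Fgf21 downward. The receptors and 2 of the Sprouty genes thus stood above every ligand of the set in these cells.

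Fgf7, also called keratinocyte growth factor, is the mesenchymal ligand of the epithelial Fgfr2 form (chromosome 2, 126034658 to 126091185, plus strand). It had 19, 19 and 21 counts in the KO libraries, and 3, 12 and 17 counts in the WT libraries. The groups did not overlap, and WT replicate A was far below the rest. The log2 fold change was 0.91, with a 95% interval of -0.06 to 1.87, and was not called (edgeR adjusted p = 0.168). It was 0.50 without WT replicate A. With so few counts, a difference of that size was not resolved at this depth.

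Fgf10 is the related mesenchymal ligand (chromosome 13, 118669791 to 118792115, plus strand). It had 29, 17 and 15 counts in the KO libraries and 20, 26 and 21 counts in the WT libraries, with overlapping groups. KO replicate A was the highest library. The log2 fold change was -0.12 (95% interval -0.87 to 0.62, edgeR adjusted p = 0.844), and -0.44 without KO replicate A, also not called.

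Fgf21 is a hormone-like FGF known from liver, where fasting and the stress factor Atf4 induce it (chromosome 7, 45613886 to 45615490, minus strand). Its counts were 73, 41 and 46 in the KO libraries, against 32, 36 and 53 in the WT libraries. The ranges overlapped, and KO replicate A, the library with the most thymocyte transcripts, was the highest. The log2 fold change was 0.42 (95% interval -0.150 to 0.998; edgeR adjusted p = 0.288). Without KO replicate A it was 0.16 (edgeR adjusted p = 0.75).

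Other genes tied to Fgf21 included its regulators Atf4 and Ppara and targets these share with it. Of 12 tested, 0 rose (1 at an unadjusted p below 0.05, and 1 with DESeq2), beside 12.5% of all genes, and 2 fell (16.7%, beside 11.1%). One of them was Asns, the asparagine synthetase that Atf4 induces, which was 1.21-fold lower in KO (edgeR adjusted p = 0.00178). The list median was 0.00 on the log2 scale, beside -0.0008 over all genes tested. Atf4 had 193 ± 5.12 CPM in the KO group, against 183 ± 6.87 CPM in the WT group (SD, n = 3 each) and was not called. Atf3, named after its values were seen, had 1169 ± 45.0 CPM in the KO group, against 833 ± 132 CPM in the WT group. Its groups did not overlap, with an unadjusted edgeR p of 0.0139 and an adjusted p of 0.0567. On this list 1 gene was called higher with limma on log2(TPM + 1) and 1 with the replicate block. Klb, the co-receptor that Fgf21 needs, was named after its values were seen: it had 0 counts in all 6 libraries, which allows up to 3 counts per library, or 0.0768 to 0.0878 CPM, for counting error only.

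Fgf2, or basic FGF, binds several receptors and is made by many cell types (chromosome 3, 37348346 to 37410108, plus strand). It had 140, 137 and 113 counts in the KO libraries and 116, 138 and 145 counts in the WT libraries. The groups overlapped, with a log2 fold change of -0.02 (95% interval -0.32 to 0.29; edgeR adjusted p = 0.953). Its TPM behaved differently: 1.9, 1.53 and 2.83 TPM in the KO libraries, against 1.04, 1.28 and 1.36 TPM in the WT libraries, with no overlap. The length that RSEM assigned to Fgf2, a mean over its transcripts weighted by their estimated share, was 3839, 4690 and 2443 bases in the KO libraries, and 5973, 5973 and 5472 bases in the WT libraries. The annotation lists 1 Fgf2 transcript of 5973 bases, and the other 7 have 257 to 1240 bases. Lengths were shorter in every KO library, and TPM divides by length. An exact two-sided permutation test gave p = 0.1, the smallest that 3 against 3 libraries can give. Groups that do not overlap always give that value, so it adds nothing to the lengths themselves. With limma on log2(TPM + 1) Fgf2 was 0.45 higher in KO and not called (limma adjusted p = 0.135).

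The Fgf2 locus is also read from the other strand. The annotation places 3 genes there over Fgf2, namely the antisense gene Fgf2os, Gm42923 and the protein-coding Nudt6, and the column for the strand opposite to Fgf2 held 241, 246 and 195 counts in the KO libraries and 211, 191 and 207 counts in the WT libraries. That is more than Fgf2 itself had in each library, and to which of the 3 these counts belong was not tested. Nudt6 had 6.47 ± 0.252 CPM in the KO group, against 6.32 ± 0.340 CPM in the WT group (SD, n = 3 each) and was not called.

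Other secreted ligands were mostly too rare to test. Of 14 on the list, 5 could be tested and 1 rose, which is 20% of those tested, beside 12.5% of all genes. It was Fgf16, a paracrine FGF, with 13.3 ± 0.622 CPM in the KO group, against 11.3 ± 0.304 CPM in the WT group (SD, n = 3 each; edgeR adjusted p = 0.0457). That call was lost without KO replicate B or C (edgeR adjusted p = 0.0993 and 0.115) and without WT replicate A, B or C (edgeR adjusted p = 0.0975, 0.0871 and 0.146). Fgf1 and Fgf9, named after their values were seen, were the most abundant FGF ligands on this list. Fgf1, which binds all FGF receptors, had 156 ± 10.8 CPM in the KO group, against 159 ± 2.84 CPM in the WT group, and Fgf9 had 30.0 ± 2.33 CPM in the KO group, against 30.35 ± 0.967 CPM in the WT group (SD, n = 3 each). The lowest Fgf1 level was 73.0 TPM, above the highest TPM of Fgf2, Fgf7, Fgf10 and Fgf21 in any library. Of 4 intracellular FGF homologous factors, which are not secreted and bind sodium channels, Fgf14 fell 1.62-fold in KO (edgeR adjusted p = 2.83e-04) and 3 were not called. That fall is 25% of the list, beside 11.1% of all genes.

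Sprouty proteins restrain receptor tyrosine kinase signalling upstream of ERK, and none of their 3 transcripts was called. Spry2 (chromosome 14, 105891947 to 105896819, minus strand) had 99.8, 108 and 107 CPM in the KO libraries, against 105, 113 and 110 CPM in the WT libraries. Its log2 fold change was -0.05, with a 95% interval of -0.14 to 0.03 (edgeR adjusted p = 0.395). Spry1 (chromosome 3, 37639947 to 37644598, plus strand) had 58.4, 67.2 and 62.9 CPM in the KO libraries, and 58.8, 61.3 and 63.1 CPM in the WT libraries. Its fold change on the log2 scale was 0.04 (95% interval -0.07 to 0.15; edgeR adjusted p = 0.618). For both genes the groups overlapped, and the intervals leave little room for changes as large as that of Fgfr1.

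Spry4 (chromosome 18, 38586247 to 38601415, minus strand) was much rarer, with 2.80, 2.63 and 2.49 CPM in the KO libraries and 1.97, 2.06 and 2.28 CPM in the WT libraries. All KO libraries lay above all WT libraries. The difference was 0.33 on the log2 scale (95% interval -0.04 to 0.69) and was not called (edgeR adjusted p = 0.194), nor was it in any alternative that gave a value.

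**Figure D3:**
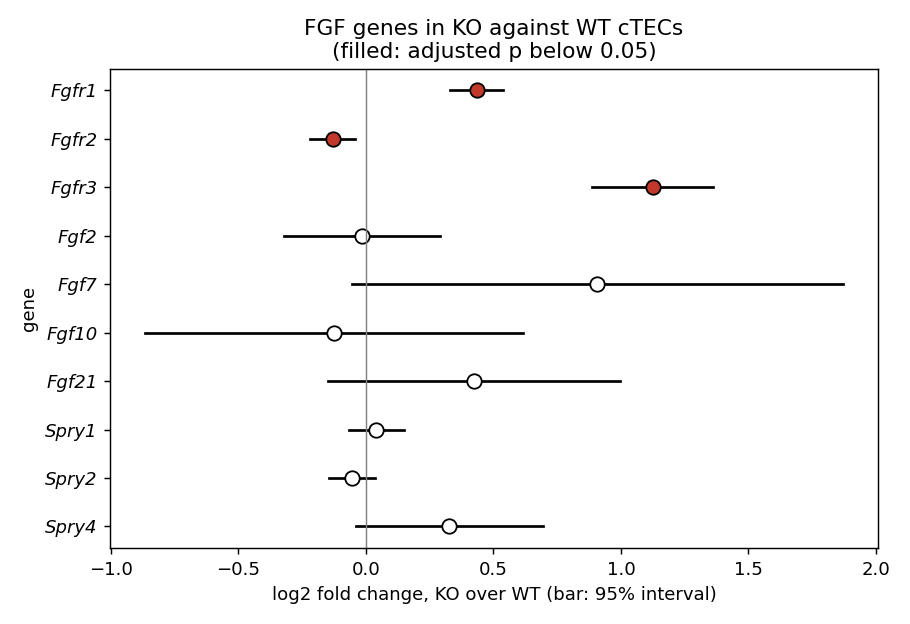
Log2 fold change of KO over WT (x axis) for each gene (y axis), with its 95% interval as a bar and filled points for genes with an adjusted p below 0.05. Fgfr3 (1.12) and Fgfr1 (0.43) lie above 0 and Fgfr2 (-0.13) below it, while the intervals of the ligands and Sprouty genes cross 0.

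Among other inhibitors of the pathway, 6 of 11 tested rose and 0 fell (1 had a lower level at an unadjusted p below 0.05, and 0 with DESeq2). Their median log2 fold change was 0.21. The rises are 54.5% of the list, beside 12.5% of all genes. Spry3 was not analysed here. The dual-specificity phosphatases Dusp4, Dusp5 and Dusp6, which remove phosphate from ERK and related kinases, were 2.27-fold, 2.02-fold and 1.23-fold higher in KO (edgeR adjusted p = 1.00e-05, 0.0044 and 1.28e-04). Dusp6, the ERK phosphatase most tied to FGF signalling, had 93.9 ± 3.86 CPM in the KO group, against 76.2 ± 3.31 CPM in the WT group (SD, n = 3 each). Cblb, a ubiquitin ligase that acts on receptor signalling, rose 1.16-fold (edgeR adjusted p = 0.00361). Spred2, a Sprouty-related inhibitor of Ras signalling, rose 1.11-fold (edgeR adjusted p = 0.0199), a call lost without KO replicate B or C (0.0626 and 0.0817) and without WT replicate A or B (0.096 and 0.0514). Leaving out 1 library at a time left 4 to 6 rises and 0 to 1 falls on this list, and 6 rises without KO replicate A. With limma on log2(TPM + 1) 3 rose, and Cblb and Spred2 were not called (limma adjusted p = 0.0715 and 0.0653). Whether the Sprouty genes and the other inhibitors differed in their response was not tested.

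Of 12 transcription factors and targets that respond to ERK, 7 (58.3%) were called higher in KO, beside 12.5% of all genes, 0 were called lower and 5 were not called. On the log2 scale the list's median was 0.34. At an unadjusted p below 0.05 and with DESeq2, 0 were lower as well. Ccnd1, the cell cycle regulator cyclin D1, had 107 ± 9.14 CPM in the KO group, against 74.6 ± 2.80 CPM in the WT group (SD, n = 3 each; edgeR adjusted p = 5.99e-05). Phlda1, Egr1, Fos and Myc rose 1.37-fold, 1.29-fold, 1.28-fold and 1.15-fold (edgeR adjusted p = 1.61e-04, 8.36e-04, 1.33e-04 and 0.00462). Etv4 and Etv5, the Ets factors most often used as readouts of FGF signalling, were not called and were named after their values were seen: Etv5 had 16.0 ± 2.52 CPM in the KO group, against 16.3 ± 1.68 CPM in the WT group, and Etv4 had 2.47 ± 0.588 CPM in the KO group, against 1.98 ± 0.475 CPM in the WT group. Rises on the list numbered 5 to 9 with 1 library left out, and 9 without KO replicate A. With limma on log2(TPM + 1) 5 rose, and Myc was not called (limma adjusted p = 0.0751).

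Of 20 genes tested in the relay between receptor and ERK, 1 rose and 3 fell, with a median of -0.04. These 4 are 20% of the list, close to the 23.6% called over all genes. The adaptor Grb2 was 1.13-fold lower in KO (edgeR adjusted p = 0.00182), the docking protein Gab1 1.10-fold lower (0.0184) and the kinase Mapk3, which is ERK1, 1.07-fold lower (0.0424), while the kinase Araf was 1.08-fold higher (0.031). Grb2 alone of these was called without each library in turn. With limma on log2(TPM + 1), Grb2, Gab1, Mapk3 and Araf were not called (limma adjusted p = 0.557, 0.219, 0.226 and 0.135). Gab1 was lost when any of KO replicate C, WT replicate B and WT replicate C was left out, Mapk3 without KO replicate B or C or any WT replicate, and Araf without any KO replicate or WT replicate B or C (edgeR adjusted p between 0.053 and 0.179).

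Of 17 heparan sulfate genes tested 3 rose, 3 fell and 11 were not called, with a median of 0.03. Each direction holds 17.6% of the list, beside 12.5% higher and 11.1% lower over all genes. Sulf2, a secreted sulfatase that trims heparan sulfate outside the cell, had 62.1 ± 1.89 CPM in the KO group, against 47.8 ± 0.477 CPM in the WT group (SD, n = 3 each; edgeR adjusted p = 1.15e-05). Hs6st2, a sulfotransferase, and the glypican Gpc6 rose 1.46-fold and 1.31-fold (edgeR adjusted p = 6.11e-04 and 0.0101). Glypican Gpc1 and the sulfotransferase Hs2st1 were 1.13-fold and 1.09-fold lower (edgeR adjusted p = 0.0057 and 0.0124). Without WT replicate A, Gpc6 and Hs2st1 were not called (edgeR adjusted p = 0.0518 and 0.0554). With limma on log2(TPM + 1), Hs6st2, Gpc1 and Hs2st1 were not called (limma adjusted p = 0.31, 0.129 and 0.31).

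Of 8 other receptors, co-receptors and ligand carriers tested, 2 rose (25%, beside 12.5% of all genes) and 1 fell (12.5%, beside 11.1%). The list median was -0.07. Kl, or Klotho, a co-receptor for endocrine FGFs, had 1.35 ± 0.575 CPM in the KO group, against 3.07 ± 0.596 CPM in the WT group (SD, n = 3 each; edgeR adjusted p = 0.00558). Flrt2 and Flrt3, membrane proteins that can bind FGF receptors, were 1.31-fold and 1.11-fold higher in KO (edgeR adjusted p = 0.0429 and 0.0409). The Flrt2 call was lost without any of KO replicate A, WT replicate B and WT replicate C (0.114, 0.112 and 0.0994). The Flrt3 call was lost without KO replicate A, B or C (0.0913, 0.0808 and 0.0707) and without WT replicate A or B (0.0568 and 0.223). With limma on log2(TPM + 1), Kl, Flrt2 and Flrt3 were not called (limma adjusted p = 0.0765, 0.0635 and 0.0835). Over the 8 pathway lists together, 20 of 89 genes tested (22.5%) were higher in KO, beside 12.5% of all genes, and 10 (11.2%) were lower, beside 11.1%. Without KO replicate A 19 were higher and 9 lower.

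**Figure D4:**
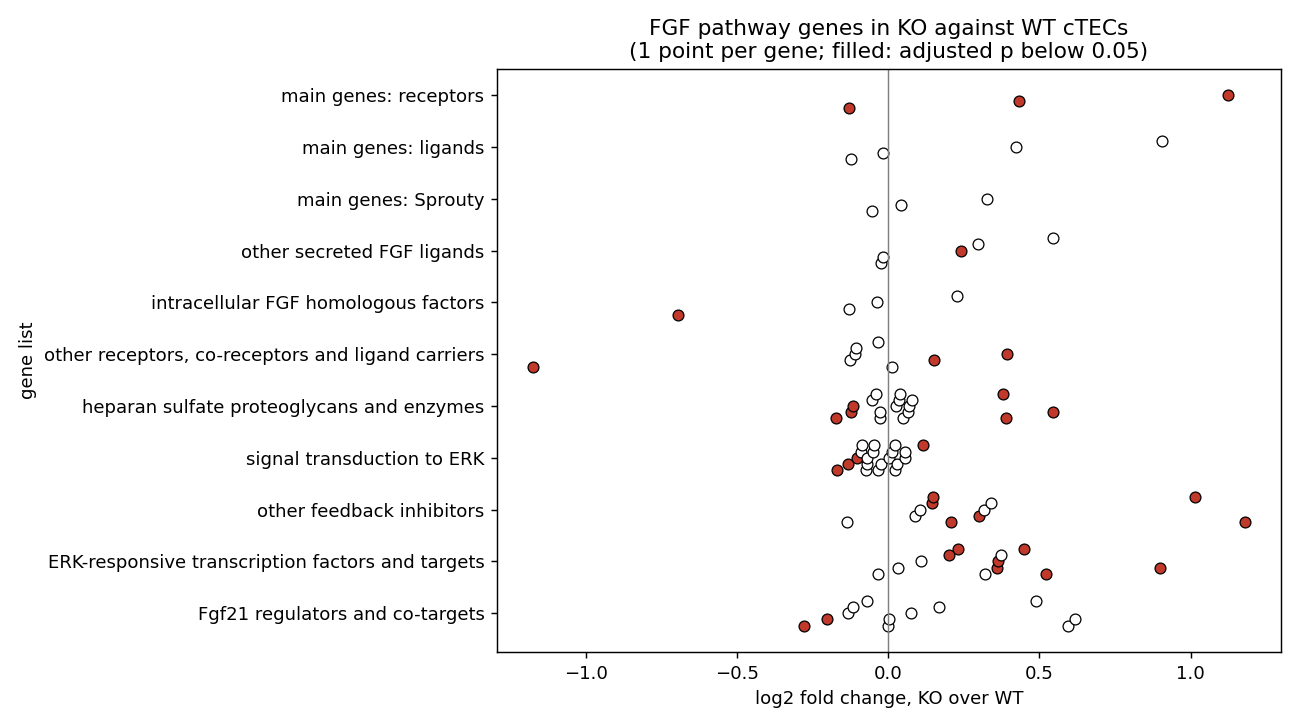
Log2 fold change of KO over WT (x axis) for each tested gene of the receptor, ligand and Sprouty genes and of the 8 pathway lists (y axis), 1 point per gene, filled where the adjusted p was below 0.05. The other inhibitors of the pathway (median 0.21) and ERK-responsive genes (median 0.34) lie mostly to the right of 0, while the genes of the relay to ERK (median -0.04) cluster around it.

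Some markers of other thymic cells also differed between these libraries, where 12.5% of all genes were called higher in KO. Of 14 fibroblast and pericyte markers tested 11 were higher in KO (10 without KO replicate A) and 0 lower, and the summed level of the list was 1440 to 1548 CPM across KO and 982 to 1118 CPM across WT libraries. Fbn1, Acta2, Thy1 and Dcn rose 1.67-fold, 1.52-fold, 1.65-fold and 1.28-fold. Dcn was the largest part of that sum, with 778 ± 32.0 CPM in the KO group, against 607 ± 36.6 CPM in the WT group. Thy1 was highest, at 20.8 CPM, in KO replicate A, the library with the most thymocyte transcripts. The fibroblast receptor Pdgfra had 3.48 ± 0.466 CPM in the KO group, against 3.37 ± 0.336 CPM in the WT group, and Pdgfrb had 3.63 ± 0.430 CPM in the KO group, against 3.41 ± 0.406 CPM in the WT group (SD, n = 3 each). Neither was called, and both were named after their values were seen. Of 10 medullary epithelial markers 6 were higher (5 without KO replicate A) and 0 lower, with sums of 5379 to 5765 CPM across KO and 4003 to 4573 CPM across WT libraries. Among them Cldn3, Tnfrsf11a, Krt14 and Krt5 rose 2.46-fold, 1.78-fold, 1.32-fold and 1.30-fold. None of the markers on these lists was at 0 in all libraries. Their part in the differences of Fgfr1, Fgfr3, Fgf7 and the pathway lists was not tested.

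**Figure D5:**
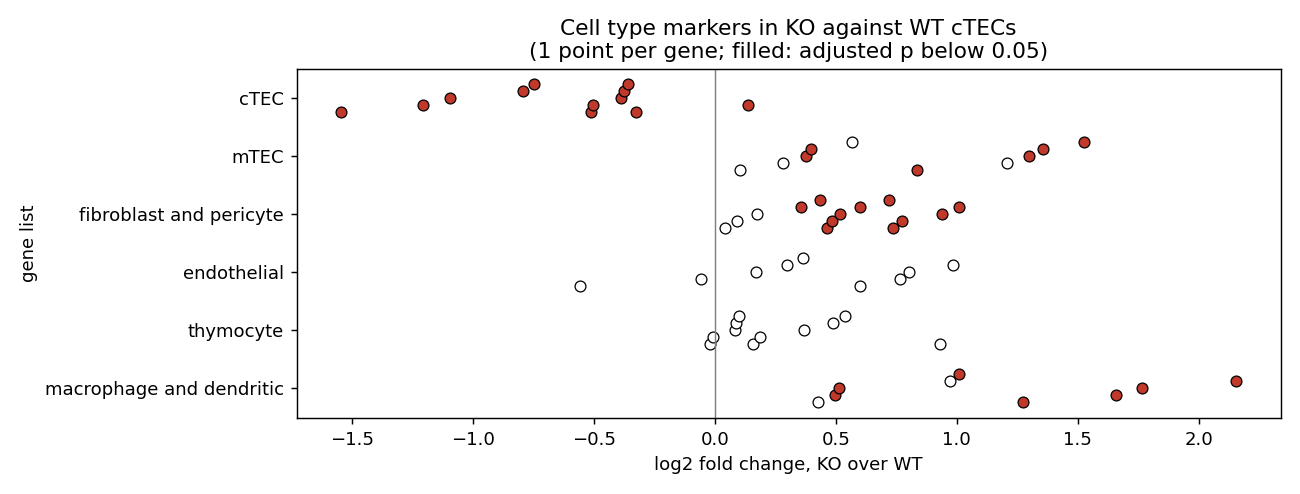
Log2 fold change of KO over WT (x axis) for the tested markers of 6 cell types (y axis), 1 point per gene, filled where the adjusted p was below 0.05. The cTEC markers lie to the left of 0 apart from Epcam (0.14), and the fibroblast and pericyte markers (median 0.50) and medullary epithelial markers (mTEC, median 0.70) lie to the right.

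Of 9 macrophage and dendritic cell markers tested 7 were higher in KO (77.8%, beside 12.5% of all genes), and 4 without KO replicate A. Sums over the list were 65.0 to 73.3 CPM across KO and 34.03 to 37.5 CPM across WT libraries. Itgax rose 3.40-fold, Lyz2 2.42-fold, Cd14 2.02-fold and Mpeg1 1.41-fold. With the edgeR test 0 of 9 endothelial and 0 of 11 thymocyte markers were called, with 1 and 0 at an unadjusted p below 0.05 and 0 and 0 by DESeq2. Without KO replicate A 1 endothelial marker was called lower in KO, and without WT replicate C 1 was called higher. Summed endothelial levels were 24.7 to 65.3 CPM across KO and 20.6 to 49.2 CPM across WT libraries, and summed thymocyte levels 40.9 to 82.6 CPM across KO and 41.5 to 51.7 CPM across WT libraries. Fgf21 and Fgf10 were, like these sums, highest in KO replicate A, whereas Fgfr1 and Fgfr3 were highest in KO replicate C.

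The genes whose profile over the 6 libraries was most like that of Fgfr3, by the root mean square difference of centred log2 CPM among 11294 genes of at least 5 CPM, were Notch3 (0.0684), a Notch receptor, Prrx1 (0.0792), a transcription factor of mesenchyme, and Tjp3 (0.0794), a tight junction protein. Notch3 averaged 107 CPM in KO cTECs, against 49.2 in WT. Prrx1 averaged 8.53 CPM in KO cTECs, against 3.95 in WT, and Tjp3 17.9 CPM in KO cTECs, against 7.67 in WT. This is a description over 6 libraries.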

How the data were processed

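The tools named in the submitters' processing notes are bcl2fastq 2.17, STAR 2.5.1b (an aligner) and RSEM 1.2.28 (which estimates transcript levels). Their listed build is GRCh38, which is human, while identifiers are mouse Ensembl, so symbols and positions came from GENCODE M21 (GRCm38). Of 50600 identifiers, 50376 matched. The deposited read counts are raw, with a column per strand setting, and the one for the opposite strand was used. The authors also deposited RSEM expected counts (estimated reads), TPM and a length per gene. Rows that name no gene (unmapped, multimapping, no feature, ambiguous) were 18.4% to 19.8% of each library and stayed out.

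Genes passing filterByExpr were tested by quasi-likelihood (edgeR 4.0.16, R 4.3.3) after TMM scaling, with robust shrinkage and no block. CPM uses TMM-scaled library sizes, and values are mean ± SD over 3 libraries. Each SE was derived from the F statistic, and 95% intervals from that SE, which is approximate. The method was also run on simulated counts. These gave every gene the same dispersion and changed 200 genes, unlike the data, so they do not check the calls given here. Other settings tried were DESeq2 1.42.0, RLE or upper quartile scaling, other count filters, RSEM expected counts rounded to whole numbers, limma 3.58.1 on log2(TPM + 1) and log2(TPM + 0.1), unstranded counts, a replicate block and leaving out each library. A fit without robust shrinkage was added after the data were seen.

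The genes and lists were chosen with earlier results of these data known. Named genes were the 10 genes, up to 5 called genes per pathway list and up to 4 per marker list by p, and for Fgfr3 the 3 genes of the most similar profile. Others are marked where named, and 1 gene that the rule names is not reported here. Plots used Python 3.11.15 and matplotlib 3.10.9.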

Additional observations from a re-analysis of the deposited data

Results flagged for a closer look

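The Fgf2 locus gave more counts on the other strand than on its own, in a column that no comparison used: 227 ± 28.1 counts in KO and 203 ± 10.6 in WT (mean ± SD, n = 3 each), above the 3 counts that a count of 0 allows. Fgf2os, Gm42923 and Nudt6 are annotated there. No group had 4 or more libraries, so single libraries were not tested as outliers.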

How the results depend on the processing

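Over 17 alternatives, the 10 genes gave 165 log2 fold changes, of which 145 kept direction and side of the threshold. The 9 lost calls were all of Fgfr2, which had an adjusted p of 0.0515 with upper quartile normalization, 0.0673 with a mean of at least 5 CPM, 0.264 with limma at a TPM pseudocount of 1 and 0.269 at one of 0.1, and lost it without every library but KO replicate A. Under those 4 settings 0 of the 10 genes were called lower. The 11 reversals were of genes that the main fit left uncalled, at -0.0165 for Fgf2, -0.1246 for Fgf10 and 0.0409 for Spry1. Fgf2 was 0.45 and 0.69 with limma at these pseudocounts, 0.0766 with unstranded counts, and 0.0393 and 0.02 without KO replicate C and WT replicate B. Fgf10 was 0.0028, 6e-04, 0.10, 0.0185 and 0.0078 under the same settings, and Spry1 -0.0115 without KO replicate B. Leaving out 1 library gave -0.0698 to 0.0393 for Fgf2, -0.4431 to 0.0185 for Fgf10 and -0.0115 to 0.0915 for Spry1. The cause was not tested.

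A pseudocount of 1 TPM in limma gave 1927 genes called (1169 higher, 758 lower, against 3989, 2113 and 1876 with edgeR), and one of 0.1 TPM gave 1857 (1119 higher, 738 lower). Pathway genes called higher and lower were then 12 and 2 under both. Leaving out 1 library gave 2715 to 3661 calls, 1476 to 1917 higher and 1239 (without WT replicate C) to 1744 lower. Of the 10 genes 2 were then higher and 0 to 1 lower, and of the pathway genes 14 to 19 higher and 8 to 9 lower. Fgf2, Fgf7, Fgf10, Fgf21 and Spry4 fell below the 5 CPM filter and have no value there.

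The labels do not say that replicate letters pair the libraries. Deviations of same-letter libraries correlated at -0.016, 0.082 and -0.034, and 2 of 6 libraries correlated best with their own letter in the other genotype. With 3 libraries per genotype, these values cannot decide whether the letters mark pairs. With the letter as a replicate block 4097 genes were called, 2191 higher and 1906 lower, 2 of the 10 genes higher and 1 lower, and 20 pathway genes higher and 9 lower. Depth limits Fgf7, Fgf10 and Fgf21, with 3 to 73 counts per library.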
